A study of Yarrowia lipolytica with 6 samples.

Results

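Among the protein-coding transcripts of the oil-degrading yeast Yarrowia lipolytica, 91 were both abundant in cells without the kinase Snf1 and higher there than in wild type by a middling factor. They were chosen from read counts divided by the library total and multiplied by 1e+06, written CPM. A member had a mean of at least 500 CPM over the 3 deletion libraries and a ratio of deletion mean to wild type mean from 2 to under 8. The 91 members were drawn from 6447 coding rows among 9235 rows of the count tables. The difference between the groups therefore chose the members, and their levels, ratios and calls in it are descriptions.

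Snf1 is the yeast form of AMP-activated protein kinase. In the budding yeast Saccharomyces cerevisiae it is needed for growth on carbon sources other than glucose, where it relieves the repression of genes by the transcription factor Mig1. Y. lipolytica is known for growing on alkanes and fats, which it oxidises in peroxisomes. Transcripts that take a large share of all reads are of a separate interest, because a rise in their share lowers the share left to all other transcripts when each library is scaled to its total.

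The wild type was the strain CXAU/AI and the mutant was the snf1 deletion strain, made by homologous recombination, with 3 libraries of total RNA from each. Both strains were pre-cultured for 48 h and grown for a further 24 h at 30 °C in SG medium with uracil, starting from an optical density of 0.05. The washed cells were then held for 1 h with 2% n-decane, an alkane, and 1% uracil, so every library of both groups comes from cells in decane. Triton at 0.1% is also given for every library. The labels call the libraries biological replicates without saying whether these were separate cultures, so the p-values behind the calls measure the spread between these libraries, which may be technical. They name no second deletion strain and no complemented strain, so the deletion and any other difference between these strains cannot be told apart.

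The libraries held 32315239 to 38054417 counts. The count row of SNF1 itself had 3644, 3418 and 2546 counts in wild type replicates 1, 2 and 3. It had 0 counts in each deletion library. A floor of 3 counts would stand at 0.0809, 0.0867 and 0.0928 CPM in deletion replicates 1, 2 and 3. Each culture was sequenced in bulk, so more cells with a transcript and more of it per cell cannot be told apart. The counts are per transcript and not per length, so CPM is compared between strains and shares of the reads are given, but levels are not compared between genes.

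The members took 6.90%, 4.51% and 5.91% of all counts in wild type replicates 1, 2 and 3. In deletion replicates 1, 2 and 3 they took 23.7%, 17.6% and 20.6%. Every deletion library lay above every wild type library, and replicate 2 was the lowest of its group in both strains. The means were 5.78% ± 1.20 (SD, n = 3) and 20.6% ± 3.04 (SD, n = 3). Counting error was small beside this spread: the widest exact Clopper-Pearson 95% interval reached 0.0139 percentage points to either side, and it covers counting error only.

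**Figure D1:**
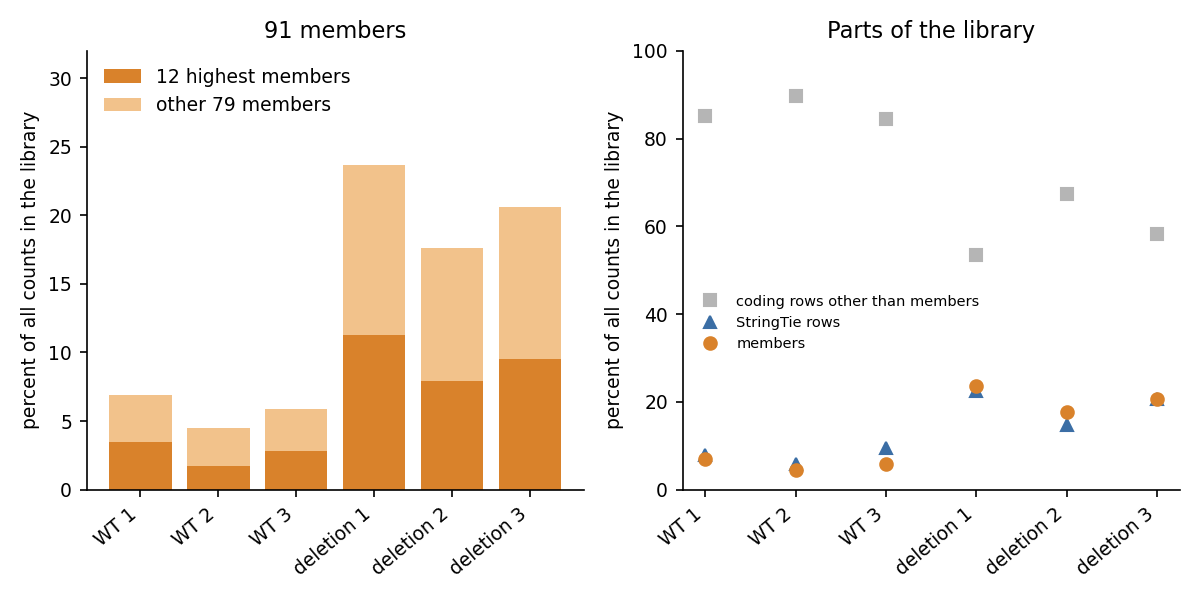
Percent of all counts in each library. In the left panel the bars give the 91 members, split into the 12 with the highest deletion mean and the other 79; in the right panel points give the members, the other coding rows and the rows assembled by StringTie. The members' bars span 4.51% to 6.90% for wild type, below the 17.6% to 23.7% of the deletion.

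The share was split between the highest members and the many lower ones. The 12 members with the highest deletion means took 2.65% ± 0.884 (SD, n = 3) of wild type counts and 9.56% ± 1.69 (SD, n = 3) of deletion counts. That was 45.9% of the members' own wild type counts and 46.4% of their deletion counts. The other 79 members went from 3.13% ± 0.318 to 11.1% ± 1.35 (SD, n = 3 each). These portions come from group means, and the wild type libraries differed. In wild type replicates 1, 2 and 3 the 12 took 3.46%, 1.71% and 2.78% of counts. The other 79 took 3.44%, 2.80% and 3.13% there, so the 12 lay above them in replicate 1 only. In each deletion library the 12 took less than the other 79. The 12 were picked on their deletion means and the rule bounded all ratios, so nothing is read from the closeness of the portions. Of the 100 highest coding rows, 51 were members in the deletion and 9 of the same 91 were in the wild type list.

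Other coding rows held a smaller share in the deletion. Coding rows other than the members held 86.4% ± 2.80 of wild type counts but 59.7% ± 7.10 of deletion counts (SD, n = 3 each). Rows assembled by StringTie, a program that builds transcripts from aligned reads, held 7.68% ± 1.83 and 19.3% ± 4.04 (SD, n = 3 each). Both the members and the StringTie rows therefore took larger shares in the deletion libraries, and 17 StringTie rows that met the same 2 bounds held 12.5% ± 3.79 there. The 20 coding rows at or above the ratio of 8 held 4.22% ± 1.30. Of coding counts alone, the members held 7.50%, 4.79% and 6.54% in the wild type libraries and 30.7%, 20.7% and 26.1% in the deletion libraries.

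The rule divided the abundant coding rows as follows. Of 277 coding rows with a deletion mean of at least 500 CPM, 91 were members, 20 had a ratio of 8 or more, 91 had a ratio from 1 to under 2 and 75 were below 1. The members' ratios had a median of 3.48 and ran from 2.00 to 7.86, with 29 under 3, 44 from 3 to under 5 and 18 at 5 or more. Deletion means ran from 504 to 14136 CPM with a median of 1299, and wild type means ran from 92.0 to 4021 CPM with a median of 330.3. In wild type, 35 members already reached 500 CPM and 56 did not. All 91 were tested after the filter on low counts, and the lowest count of any member in any library was 1557.

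**Figure D2:**
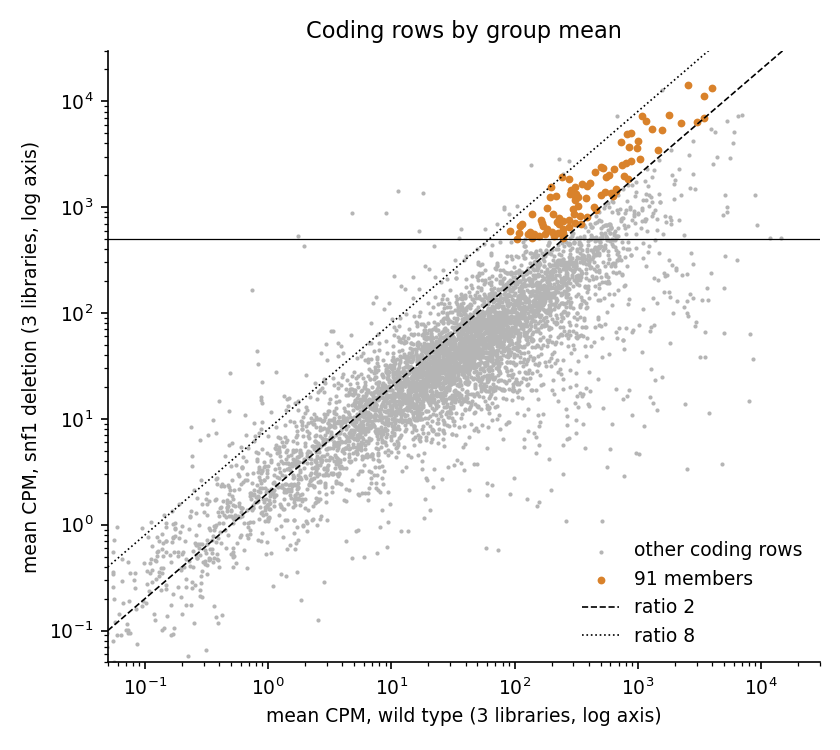
Mean CPM of each coding row in wild type (x) and in the deletion (y), both on log axes, over 3 libraries each. The members are the points that the rule encloses, at 500 CPM or more in the deletion and between the ratio lines of 2 and 8.

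Rows lay close on both sides of the bounds. Just inside 500 CPM were XM_505045.1, XM_502309.1 and XM_501936.1, with deletion means of 504, 509 and 515 CPM. Just outside were XM_503029.1, XM_503169.1 and XM_503682.1, with 499.8, 492 and 471 CPM. No gap in level set the members apart there. At the ratio of 2 the nearest members were XM_499641.1 at 2.00, XM_504151.1 at 2.04 and XM_503076.1 at 2.05, and the nearest rows outside were XM_504897.1 at 1.98, XM_504480.1 at 1.94 and XM_502248.1 at 1.91. At the ratio of 8 the nearest members were XM_505273.1 at 7.86, XM_002142947.1 at 7.81 and XM_504490.1 at 6.75, and the nearest rows outside were XM_504616.1 at 8.17, XM_002143001.1 at 8.28 and XM_500037.1 at 9.52.

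The count tables name coding transcripts by RefSeq accession, with no gene name or product. Matched by accession without its version, 82 of the 91 members had a locus tag in the RefSeq annotation of strain W29 (assembly ASM176148v1) and 9 did not. For 57 members a tag of the older annotation could be tied to the row by its values in the authors' deposited table, as described under processing. No enzyme or pathway could be read from a product name, so members are called by their accession, and roles are given only for tags that stood in a list written from general knowledge.

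The highest member, XM_504797.2, had 4304, 496 and 2893 CPM in wild type replicates 1, 2 and 3 and 23698, 4614 and 14096 CPM in the deletion replicates. Its groups did not overlap, but only just, because replicate 2 was far below the others in both strains and deletion replicate 2 stood close to wild type replicate 1. The means were 2564 ± 1925 and 14136 ± 9542 CPM (SD, n = 3), a ratio of 5.51. XM_504490.1 had the same arrangement, with 1715, 189 and 1354 CPM in wild type and 13019, 2406 and 6572 CPM in the deletion. XM_505330.1 had 1539.8, 166 and 916 CPM in wild type and 8482, 2122 and 4495 CPM in the deletion. In all 3 rows the lowest value of each strain was that of replicate 2 and the highest that of replicate 1.

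The second highest member, XM_501628.1, was tied to YALI0_C09141g, the single tag of the list of translation factors, proteins that bring charged transfer RNAs to the ribosome or otherwise drive protein synthesis. It had 5723, 3405 and 2935 CPM in wild type and 8613, 19450.3 and 12103 CPM in the deletion. Its groups did not overlap, and here replicate 2 was the highest deletion library. The authors' deposited table lists this tag at a log2 fold change of 1.37 with an adjusted p of 0.00100.

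XM_501578.1 had 6029.7, 1347 and 2914 CPM in wild type and 14848, 7132 and 11889 CPM in the deletion. XM_505863.1 had 3705, 1149 and 1830.3 CPM in wild type and 8232, 4185 and 6254 CPM in the deletion. Neither row's groups overlapped, and replicate 2 was again the lowest library of each strain. XM_502612.1 had 2518, 3023 and 3546 CPM in wild type and 4779.7, 7857 and 6348 CPM in the deletion, with no overlap and a ratio of only 2.09. XM_502217.1 had 1202, 2177 and 1379 CPM in wild type and 2519, 7180.4 and 6416 CPM in the deletion, where replicate 1 stood close above the highest wild type library. The last of the 12, XM_503076.1, XM_499642.1, XM_501398.1 and XM_501399.1, are described with the overlapping rows and the neighbouring rows below.

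**Figure D3:**
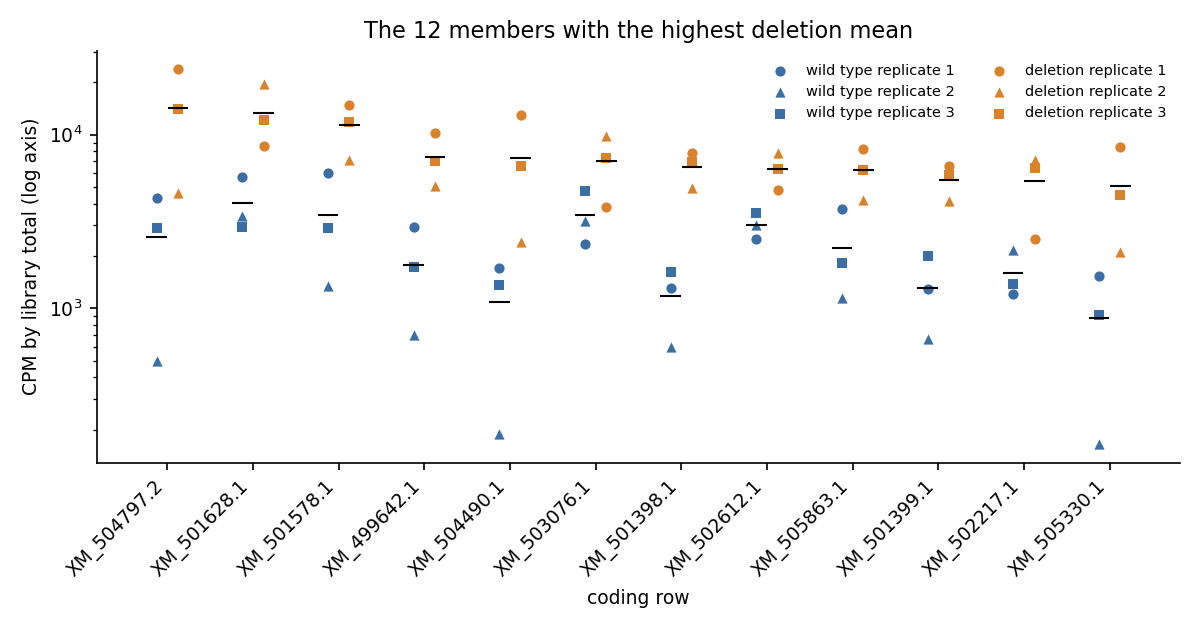
CPM by library total (log axis) of the 12 members with the highest deletion mean. Each point is a library, 3 of wild type and 3 of the deletion for each row; the groups overlap in XM_503076.1 and in none of the other 11 rows.

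The groups of 88 members did not overlap, meaning that the lowest deletion CPM was above the highest wild type CPM. The same held for 35.4% of all 7244 tested features and for 45.8% of the 277 abundant coding rows, members included. Since the ratio that chose the members comes from the same libraries, nothing is read from that count. The 3 members whose groups overlapped did so through different pairs of libraries. XM_503076.1 had 2353, 3161 and 4749.5 CPM in wild type and 3822, 9805 and 7377 CPM in the deletion, so wild type replicate 3 lay above deletion replicate 1. XM_503421.1 had 378, 970 and 479 CPM in wild type and 809, 1743 and 1502 CPM in the deletion, so wild type replicate 2 lay above deletion replicate 1. XM_002142999.1 had 349, 112 and 693 CPM in wild type and 2092, 692 and 1960 CPM in the deletion, so wild type replicate 3 lay just above deletion replicate 2.

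How far apart the groups stood varied more than the ratio of means shows. The lowest deletion value divided by the highest wild type value had a median of 1.48, reached at least 2 in 28 members and was under 1.2 in 13 of the 88. XM_499813.1 had the widest gap, 4.78, with 228, 126 and 224 CPM in wild type and 1289, 1093 and 1338 CPM in the deletion. XM_499957.1 followed at 4.22, with 232, 213 and 205 CPM in wild type and 1475, 979 and 1400.0 CPM in the deletion. In both rows the 3 libraries of the deletion lay far above wild type. They lay close together in XM_499813.1 and less so in XM_499957.1, where deletion replicate 2 was the lowest. XM_502241.1, with 610 CPM in wild type replicate 1 and 617 CPM in deletion replicate 2, was among the closest pairs, at 1.01.

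Among the 8 largest ratios were rows with uneven deletion libraries and rows with even ones. XM_505273.1, at 7.86, had 322, 90.1 and 320.2 CPM in wild type and 3598, 623 and 1533 CPM in the deletion. XM_002142947.1, at 7.81, had 174, 63.4 and 360.3 CPM in wild type and 1854, 731 and 2086 CPM in the deletion. Deletion replicate 2 was the lowest deletion library in each. XM_502483.1, at 6.53, had 46.0, 170 and 60.4 CPM in wild type and 204, 1043 and 557 CPM in the deletion, so replicate 2 was the highest library of each strain. XM_503633.1, at 6.27, was steadier, with 96.1, 125 and 195 CPM in wild type and 895, 1022 and 692 CPM in the deletion.

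Replicate 2 stood apart among the members in both strains. In 44 of the 91 members (48.4%), replicate 2 was the lowest library of wild type and also the lowest of the deletion. Among 443 other coding rows of like abundance (a mean over the 6 libraries within the members' own range), this held for 32 (7.22%). Replicate 2 was the highest library of both strains in 11 members (12.1%) and in 90 of the other rows (20.3%). The ratio of means that chose the members does not use the order of libraries within a strain, but it rests on the same values. Whether that choice favours rows with such an order was not tested, so nothing is read from the difference. All rows share the same 6 libraries, so these counts are given with no test. With TMM scaling (trimmed mean of M values, which assumes that most features do not change), the first counts were 39 members (42.9%) and 27 other rows (6.09%).

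**Figure D4:**
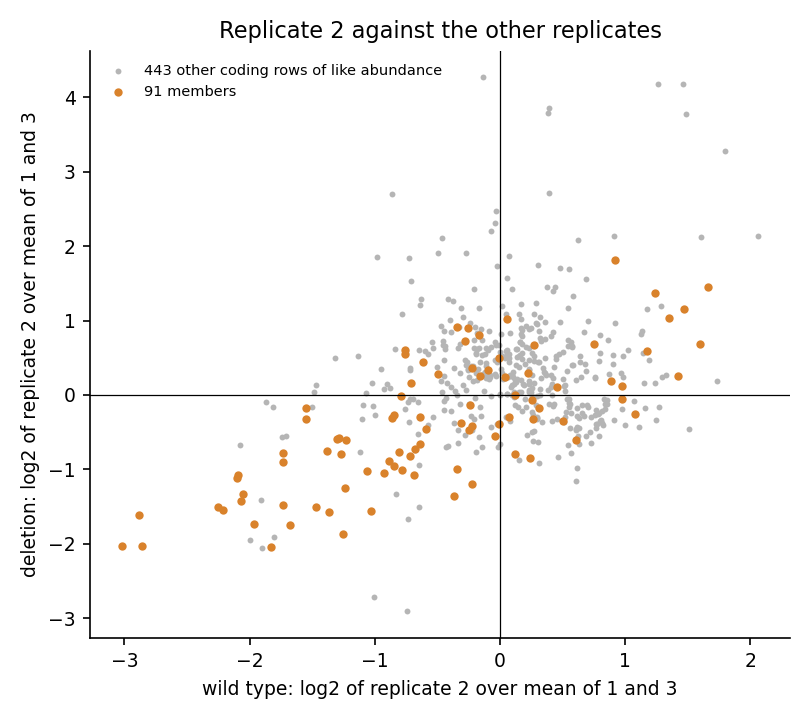
Log2 of replicate 2 over the mean of replicates 1 and 3, in wild type (x) and in the deletion (y), by CPM of library total. Replicate 2 was below the mean of the other replicates in both strains in 51 of the 91 members and in 58 of the 443 other coding rows of like abundance.

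The 44 rows that were lowest in both replicate 2 libraries took 3.80%, 1.15% and 2.90% of counts in wild type replicates 1, 2 and 3 and 16.4%, 6.36% and 11.5% in the deletion replicates. Of them, 39 were highest in deletion replicate 1. The 11 rows that were highest in both replicate 2 libraries took 0.419%, 0.877% and 0.451% in wild type and 1.04%, 3.17% and 2.05% in the deletion. The place of replicate 2 in these 2 sets was fixed by how they were chosen. In both strains replicate 1 was above replicate 3 in the first set and below it in the second. The remaining 36 members, which include uneven rows such as XM_501628.1, together took 2.68%, 2.49% and 2.57% in wild type and 6.26%, 8.07% and 7.04% in the deletion. The median ratio of deletion to wild type was 4.32 in the 44 rows, 3.39 in the 11 and 2.92 in the 36. The StringTie rows were also lowest in replicate 2 of each strain, at 5.78% (wild type) and 14.7% (deletion) of all counts. The part of any library difference in these results was not tested, and the labels do not say that equal replicate numbers mark a shared day or culture.

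Members varied more between replicates than other coding rows of like abundance. Their median coefficient of variation was 37.9% over the wild type libraries and 32.2% over the deletion libraries, against 29.2% and 24.3% for the 443 other rows. The members were chosen on means of these same libraries. Whether that choice favours uneven rows was not tested, so nothing is read from the difference. The least even member in the deletion was XM_002143009.1, at 83.8%, with 479.5, 1200.1 and 790.1 CPM in wild type and 1275, 9282 and 4017 CPM in the deletion. The least even in wild type was XM_501624.1, at 81.2%, with 676, 114 and 277 CPM in wild type and 2682, 816 and 1412 CPM in the deletion. Their high libraries differ, being replicate 2 in the first row and replicate 1 in the second.

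Some members lay side by side in the genome. In the order of locus tags of the W29 annotation, 5 pairs of members were direct neighbours, which took in 10 of the 82 matched members (12.2%). Of 5732 other matched coding rows, 120 (2.09%) had a member as a direct neighbour. The build behind the counts is not known here, so the annotation served only for the order of genes.

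In the pair on chromosome C, XM_501398.1 had 1303, 598 and 1608 CPM in wild type and 7797, 4904 and 6914 CPM in the deletion. Its neighbour XM_501399.1 had 1283, 663 and 1988 CPM in wild type and 6554, 4119.9 and 5813 CPM in the deletion. The order of the 6 libraries was the same in both rows. In the pair on chromosome F, XM_505765.1 had 179, 55.2 and 107 CPM in wild type and 1135, 298 and 638 CPM in the deletion. XM_505766.1 beside it had 316, 163 and 351 CPM in wild type and 3281, 807 and 1485 CPM in the deletion. Both were highest in deletion replicate 1 and lowest in replicate 2 of each strain.

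The other pairs were less alike. On chromosome A, XM_499642.1 had 2932, 698 and 1720.4 CPM in wild type and 10244, 5062 and 7075 CPM in the deletion, a ratio of 4.18. Its neighbour XM_499641.1, the member with the smallest ratio, had 415, 350.5 and 266 CPM in wild type and 567, 768 and 729 CPM in the deletion. The deletion libraries of these rows ran in opposite order, with replicate 2 lowest in the first and highest in the second. XM_504194.1 and XM_504195.1 on chromosome E had ratios of 4.25 and 2.06, and XM_503067.1 and XM_503068.1 on chromosome D had 3.36 and 5.31. Whether reads of neighbouring rows could be counted for each other was not tested, and no source used here gives the strand setting of the counting. Members were spread over all 6 chromosomes, from 0.855% of the matched coding rows on chromosome A to 1.79% on chromosome D.

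Of the 11 tags listed for glycolysis and pyruvate metabolism, which turn sugar into pyruvate and onward, 4 stood in the authors' deposited table, 3 of these could be tied to count rows and all 3 were members. XM_505509.1 (YALI0_F16819g) had 459, 197 and 259 CPM in wild type and 1429, 1125 and 1363 CPM in the deletion. XM_505675.1 (YALI0_F20702g) had 186, 246 and 172 CPM in wild type and 542, 612 and 590.0 CPM in the deletion. XM_505023.1 (YALI0_F05214g) had 274, 219 and 246 CPM in wild type and 643, 451 and 609.8 CPM in the deletion. None of the 3 overlapped, and their coefficients of variation in the deletion, 12.2%, 6.19% and 18.1%, were below the members' median. The authors' deposited table lists the 4 tags at log2 fold changes of 1.78, 1.16, 0.87 and, for YALI0_F09185g, which was not tied to a row, 2.57. In the edgeR fit described next, 2 of the 3 tied rows were called higher and none lower, beside 18.3% of all tested features called higher. Only tags in the authors' table could be tied, and the 4 found there all had an adjusted p of 0.0168 or less in the authors' DESeq2 test. The rows seen are therefore not an even sample of the list, and nothing is read from their calls or membership.

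Of the 8 tags listed for fatty acid and sterol synthesis, 5 were tied to rows and none was a member. XM_503231.1 (YALI0_D24431g) had 104 ± 33.4 CPM in wild type and 1021 ± 114 CPM in the deletion (SD, n = 3), a ratio of 9.84 and so above the upper bound. XM_501496.1 (YALI0_C05951g) had 4409 ± 1557 and 2949 ± 622 CPM (SD, n = 3) and so fell below the lower bound, and the other 3 stayed under 500 CPM in the deletion. In edgeR, 3 of the 5 were called higher and none lower, beside 18.3% of all tested features called higher. These 5 too were the listed tags found in the authors' table, each with an adjusted p of 0.0370 or less in the authors' DESeq2 test, so nothing is read from their calls. The authors' deposited table lists 4 of the 5 as higher and YALI0_C05951g as lower, at a log2 fold change of -0.93 with an adjusted p of 0.0370.

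How many members passed a test depended on the scaling and on single libraries. With edgeR's quasi-likelihood test and TMM scaling, 63 of the 91 were called higher in the deletion at a Benjamini-Hochberg adjusted p under 0.05 over all 7244 features, none lower, and 28 were not called. In the same fit 18.3% of all tested features were called higher. With library sizes alone, 86 members and 26.9% of all features were called higher. Against a fold change of 2 rather than none (edgeR's glmTreat), 15 members and 6.97% of all features passed. Because this contrast chose the members, these counts describe the spread behind the ratios and support nothing. Without wild type replicate 3 the number of members called higher was 31, beside 13.0% of all features. Without deletion replicate 1 it was 38, beside 15.4%, and without deletion replicate 2 it was 66, beside 18.5%.

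The median log2 fold change of the members was 1.44 with TMM scaling, beside 0.04 over all tested features. With library sizes alone it was 1.80, beside 0.40 over all features. A change of scaling moves all features nearly alike, so the distance of 1.40 between these medians was the same in both fits by construction. With TMM scaling the members' values ran from 0.62 to 2.71, with standard errors from 0.35 to 0.75.

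The rule itself was sensitive to the scaling. Relative to scaling by library totals, TMM raised the effective size of the deletion libraries over that of the wild type libraries by a factor of 1.29, and DESeq2 size factors by 1.30, while upper-quartile scaling changed it by a factor of 1.00. With TMM sizes, 72 coding rows met the 2 bounds and 67 of them were among the 91. Of the 91, 18 then had a ratio under 2 and 8 fell under 500 CPM, the median ratio was 2.71 and the groups of 67 did not overlap. The share of all features without overlap was not computed with TMM sizes, so nothing is read from that last count. With DESeq2 size factors 71 rows met the bounds, 66 of them shared, and the median ratio was 2.68. Upper-quartile scaling gave 90 rows, 89 of them shared, with a median ratio of 3.47. Scaling to coding counts alone, which sets the StringTie rows aside, raised the number to 127 rows, 89 of them shared, with a median ratio of 3.98. The lowest ratio of the 91 under these 5 scalings was 1.52, with DESeq2 size factors. The rule required a ratio of at least 2 and the group sizes moved by a factor of 1.30 at most. That all ratios stayed above 1 therefore follows from the choice of members.

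**Figure D5:**
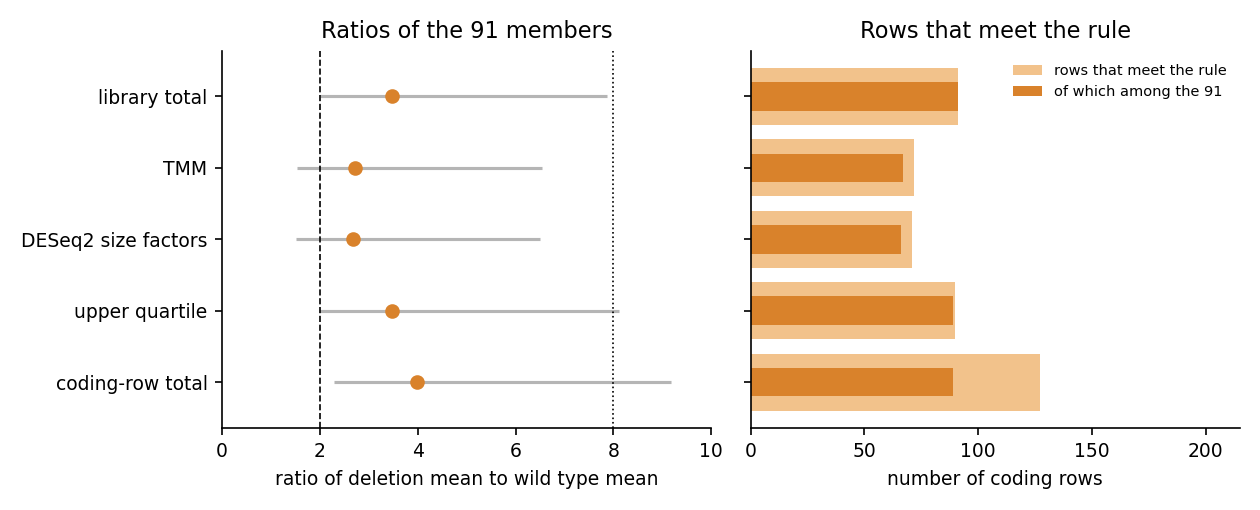
The rule under 5 scalings of the same counts. The left panel gives the median (point) and range (line) of the 91 members' ratios with the bounds of 2 and 8; the right panel gives how many coding rows met the rule and how many of these were among the 91, from 71 rows with DESeq2 size factors to 127 with coding-row totals.

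Leaving out 1 library at a time changed the list as well. Between 86 and 103 rows met the rule, of which 77 to 88 were among the 91, and 56 members met it whichever library was left out. The members chosen in that way took from 18.6% to 22.9% of deletion counts.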

How the data were processed

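Total RNA of 3 wild type and 3 snf1 deletion libraries was sequenced after directional library preparation, per the labels' protocols. Per the submitters' processing notes, the tools were HISAT2 2.2.1, Trimmomatic 0.38.0 and DESeq2 2.11.40.7, with StringTie at no stated version. The build of the genome and the strand setting: not given in the sources used here. The deposited files hold counts per transcript in each library, whole numbers with unequal totals. The authors' deposited comparison table holds, per gene, a mean normalised signal, a log2 fold change, treated as a score because 1 stray entry is out of range, its standard error, and a p-value with its adjusted p-value.

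The members and the lists were chosen with earlier results of these data known. The members were selected on CPM by library total. Counts of 7244 of the 9235 rows passed edgeR's filterByExpr (minimum count 10, minimum total 15) and were fitted with edgeR 4.0.16 in R 4.3.3 by the quasi-likelihood test with TMM scaling, without a replicate block; the biological coefficient of variation was 0.363. Adjusted p-values run over all 7244 rows, with a threshold of 0.05. DESeq2 1.42.0, limma 3.58.1, other scalings and filters, and leaving out each library were alternatives. The main fit was tested on simulated counts. It recovered 10 of 66 changes with a log2 size of 1, 57 of 67 of size 2 and 66 of 66 of size 4. There were 20 false calls among 7244 simulated features. Changes near a factor of 2 were thus mostly missed in the simulation.

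Of 2840 genes in the authors' table, 2109 tags on known chromosomes were compared with the count rows of that chromosome by fold change, error and mean, and 1068 were tied to 1 row; on a wrong chromosome 34.8 were tied on average. Named rows are the 12 with the highest deletion mean, the 8 largest and 6 smallest ratios, the 3 on either side of each bound, the 4 largest coefficients of variation in each strain and up to 4 members of each list; of these not all are printed. Rows chosen after their values were seen are those named for overlap or gap between groups and for being neighbours.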

Additional observations from a re-analysis of the deposited data

How the results depend on the processing

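With TMM, DESeq2 size factors and coding-row totals in turn, the members chosen anew took 4.44%, 4.39% and 7.43% of wild type counts. In the same order they took 18.9%, 18.8% and 23.7% of deletion counts. A lower ratio bound of 1.5 gave 8.22% and 24.9%, and no upper bound gave 24.8% in the deletion. Rows that met the rule with groups that do not overlap numbered 56 with TMM and 57 with DESeq2 size factors. A bound of 250 CPM gave 155 members, 145 without overlap, and 1000 CPM gave 54 and 51. By library total, 35.4% of all tested features had no overlap. That share was not computed for TMM or DESeq2 size factors, and nothing is read from these counts of rows without overlap. The 91 members' median ratio was 2.71, 2.68 and 3.98 under the first 3 scalings, and 3.20 to 3.99 with 1 library left out. Their median log2 fold change was 1.80 under upper-quartile scaling, as with library size only; upper-quartile scaling called 2005 features higher; glmTreat called 505 higher, 641 lower and 15 members. With 1 library left out, 873 to 1351 features and 31 to 66 members were called higher, and 951 to 1366 features lower. TMM gave 1329 higher and 1356 lower (49.5% of calls higher), library size only 1946 and 936 (67.5%). Over all tested features, deviations from the strain mean had correlations of 0.06, 0.15 and 0.15 between equal replicate numbers 1, 2 and 3. Each wild type replicate was closest to the deletion replicate of its own number. Deletion replicate 1, however, was closer to wild type replicate 3, at 0.09. These low values do not settle whether equal numbers are pairs. Over the members alone the correlations of equal numbers were 0.62, 0.76 and 0.27. There, wild type replicate 3 was closer to deletion replicate 1, at 0.46, than to deletion replicate 3. The fit with a replicate block called 74 members, 1412 features higher (19.5% of those tested) and 1342 lower. Without both replicate 2 libraries, chosen after seeing the data, 73 members were called higher, beside 18.6% of all features. The cause of these differences was not tested. No named member reversed direction under the alternatives run. The members were chosen for a ratio of at least 2 in these same libraries, so this follows largely from the choice and supports nothing. Total RNA per cell was not measured, so a larger share and more molecules per cell cannot be told apart.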
